A study of Mus musculus with 4 samples.

Results

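Insulin-positive islet cells of vehicle-injected control mice were compared between a gate labelled Glut2-low (Glut2L) and a gate labelled Glut2-high (Glut2H). Glut2, the product of Slc2a2, is the glucose transporter of the rodent beta cell, and the study set out to profile the Glut2-low gate, which its design text describes as rich in multipotent pancreatic precursors. The comparison covered 9260 genes of the 39170 rows in the deposited gene table. A gene was a member when its status was OK in both libraries, its level reached 5 FPKM (sequenced fragments counted on a gene, divided by its transcript length and by library size) in at least 1 of them, and its locus spanned 300 bp or more. Predicted genes and small RNA symbols were left out. Of the members, 9121 were annotated as protein-coding. The last gene inside the level limit was Gin1, at 3.13 FPKM in the library labelled Glut2H and 5.002 in the one labelled Glut2L, and the first outside was Hsd17b14, at 0.724 and 4.999.

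All animals were male MIP-GFP mice on the C57BL/6 strain, aged 6 to 8 weeks, whose beta cells glow through a green fluorescent protein driven by the mouse insulin 1 promoter. There were 3 mice in the vehicle group and 3 in the group given 200 mg/kg of streptozotocin (STZ), a toxin that enters beta cells through Glut2 and left those mice diabetic 4 days later. Each gate of each group gave 1 library, and the sources used here do not say whether mice were pooled. With 1 library a side there is no spread between replicates, so no difference was tested and every value describes these libraries. The STZ pair, Glut2L against Glut2H after STZ, shares no library with the control pair and is given beside it. Pairs of FPKM are given with the library labelled Glut2H first, and log2 values are those of FPKM plus 1, Glut2L minus Glut2H, so positive values mean a higher level in the library labelled Glut2L.

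The transcript that should mark the gates went against their labels. Slc2a2 (ENSMUSG00000027690, GRCm38 chromosome 3, 28697903 to 28731359) stood at 8.74 FPKM in the library labelled Glut2H and 41.0 in the other, while the STZ pair gave 10.8 and 33.7. Its deposited intervals were 2.40 to 17.5 and 14.8 to 67.2 and overlapped. Beta cell genes stood the same way, with 19 of 22 members at least 2-fold higher and 0 lower, where 18.4% and 16.4% of all members were. The gate was set on the protein and the library reports the transcript, and whether the gate labels of the libraries were exchanged was not tested. Libraries are therefore called by their labels, and an exchange would turn every direction given. How many fragments each library holds is unknown. Over all rows the FPKM came to 2935084 and 1654276, of which the predicted gene Gm20594 took 61.0% and 3.86%, while the members alone summed to 464354 and 807347. Among the members, 18 and 34 FPKM lay outside their own deposited interval. The 13 mitochondrially encoded messenger RNAs were all listed at 0 in both libraries and were not measured.

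Markers of cell types other than beta cells differed between the libraries and move with the results that follow. Of 23 macrophage markers 19 were members, each lower by 2-fold or more in the library labelled Glut2L. Only 5 of the 19 were at 5 FPKM or more in both libraries, and the whole list summed to 6583 and 224 FPKM. The sums were 388 and 59.0 FPKM for 20 endothelial markers, 524 and 54.3 for 18 fibroblast markers and 130.3 and 17.4 for 15 pericyte and smooth muscle markers. All 5 members among 23 markers of T and natural killer cells were lower by 2-fold or more. Just 1 of them was at 5 FPKM or more in both libraries, and the whole list summed to 710 and 40.5 FPKM. Ccl5, a chemokine that other leukocytes also make, gave 629 and 29.6 of these sums, whereas Cd3e, of the T cell receptor complex, stood at 0.0725 and 0 FPKM and the receptor gene Trac was listed at 0 in both libraries. Markers of other pancreatic lineages were present in both. Sums were 2345 and 4241 FPKM for alpha cell markers and 5654 and 9654 for delta, PP and epsilon cell markers. They were 5628 and 4439 for acinar markers and 811 and 1333 for duct markers. Of 11 duct members 5 were at least 2-fold higher and 2 lower. The keratin genes Krt8, at 158 and 450 FPKM, and Krt18, at 152 and 395, made up much of the duct sums. Spp1 stood the other way, at 156 and 63.1, and Sox9 stood at 0.844 and 0.651. The duct median of 0.98 turned negative with a level limit of 1 FPKM or none. The beta cell list of 23 genes summed to 71350 and 338903 FPKM. A list of 24 pancreatic progenitor genes summed to 682 and 444 FPKM. Of its 16 members 3 were at least 2-fold higher and 7 lower, where 18.4% and 16.4% of all members were. Their median log2 value, -0.58, turned positive, to 0.22, with the sums over all rows set equal. A smaller share of cells of a type and less RNA per cell of that type cannot be told apart in such bulk libraries. What part these markers had in any other difference was not tested.

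Beta cells are endocrine cells that keep a large secretory apparatus. Preproinsulin enters the endoplasmic reticulum through a protein channel, folds and forms disulfide bonds there, passes through coated vesicles to the Golgi, and is cut to insulin in granules that fuse with the membrane when glucose closes potassium channels and calcium enters. Islets also hold other hormone cells, blood vessels, matrix-forming stromal cells and resident macrophages, which sample their surroundings through Fc receptors, lectins and scavenger receptors.

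Across members, 1704 (18.4%) stood higher by 2-fold or more and 1518 (16.4%) lower by as much in the library labelled Glut2L, together 34.8%. The counts of each list below are to be read beside these shares. The same rule in the STZ pair gave 1812 (19.5%) and 1489 (16.1%) of 9277 genes, together 35.6%. The median log2 value was 0.19, with quartiles of -0.52 and 0.80. The 2 directions differed in depth. Only 261 members (2.82%) were at least 4-fold higher while 828 (8.94%) were at least 4-fold lower, and at 16-fold the counts were 8 (0.0864%) and 154 (1.66%). The members lower in the library labelled Glut2L were thus fewer at 2-fold and more numerous at 4-fold and at 16-fold. The share varied with level. The portion at least 2-fold higher was 13.96% of members whose higher level was 5 to 10 FPKM and 27.5% of those at 100 FPKM or more, and the portion lower was 17.7% and 15.6%.

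The entry rule bears on these counts, since 1106 members reached 5 FPKM only in the library labelled Glut2L and 1316 only in the one labelled Glut2H. Among the 6838 members at 5 FPKM or more in both, 1076 (15.7%) were higher and 510 (7.46%) lower. A further limit is scale. Setting the 2 sums over all rows equal turned the calls into 4478 higher and 988 lower and moved the median log2 value of members to 0.96, whereas setting that median to 0 gave 1251 and 1777. The higher side made up 52.9% of calls as deposited, 81.9% with equal sums, 41.3% with the median at 0, 45.4% with upper quartiles matched and 43.9% with equal sums of members without the 20 highest genes. The deposited intervals were wide, with median half-widths of 83.0% and 82.0% of the FPKM, and they were apart for 32 of the higher and 508 of the lower members.

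**Figure D1:**
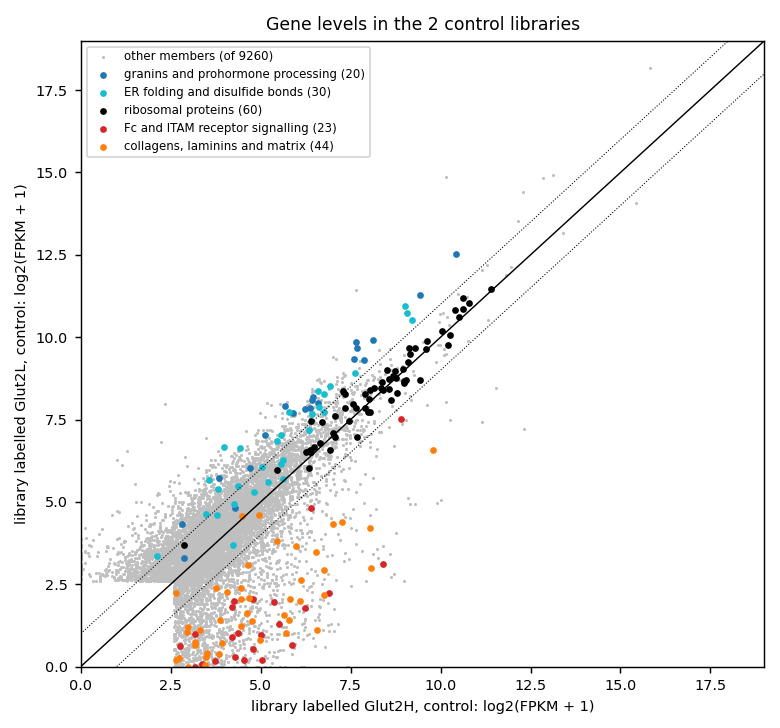
Each point is a member placed by its log2(FPKM + 1) in the control library labelled Glut2H (x axis) and Glut2L (y axis), with the solid line at equal levels and dotted lines at 2-fold. Granin genes and most folding genes lie above the line, Fc receptor genes and most matrix genes below the lower 2-fold line, and the 60 ribosomal protein genes along the line of equal levels.

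The route of secreted proteins into the endoplasmic reticulum was higher in the library labelled Glut2L. Of 26 genes for the signal recognition particle, the Sec61 channel and the signal peptidase, 25 were members, 14 were at least 2-fold higher and 0 lower (median 1.09, against 0.19 over all members), and the list summed to 1468 and 3224 FPKM. All 25 were at 5 FPKM or more in both libraries. Spcs1, a subunit of the signal peptidase, stood at 56.2 and 192 FPKM. Ssr4, of the translocon-associated complex, stood at 156 and 477. Sec61b, a small subunit of the channel, stood at 109 and 312. The exception in the list was Sec61a2, a minor isoform of the channel's pore, at 17.3 and 11.1 FPKM.

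The oligosaccharyltransferase attaches sugar chains to entering proteins. Of its list of 17 genes all were members, 10 were at least 2-fold higher and 0 lower (median 1.15), and the sums were 814 and 2125 FPKM. Rpn2, a core subunit, stood at 101 and 389.9 FPKM, and the catalytic subunit Stt3a at 54.4 and 166. Its paralog Stt3b was closer, at 11.2 and 15.5 FPKM. Among 30 genes for folding and disulfide bonds, 20 were higher and 0 lower (median 1.25), with sums of 3053 and 8660 FPKM. Fkbp11, a prolyl isomerase of secretory cells, stood at 10.8 and 49.2 FPKM, while the isomerase Ppib stood at 47.7 and 50.4 and the peroxiredoxin Prdx4 at 17.8 and 12.03. Folding genes were therefore not all higher.

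Genes for the removal of misfolded proteins and for vesicle transport extended this pattern. Of 20 members of the degradation list, 10 were higher and 0 lower (median 1.02). Derl3, a membrane protein of the export complex, stood at 3.77 and 30.2 FPKM, Herpud1, which is induced by folding stress, at 93.1 and 411, and the ubiquitin ligase Syvn1 at 13.6 and 53.8. Of 39 members of the coat and cargo receptor list, 16 were higher and 0 lower (median 0.90), and the list summed to 1660 and 3295 FPKM. Sar1b, the GTPase that starts the outward coat, stood at 14.8 and 52.4 FPKM, and Kdelr1, which returns chaperones to the reticulum, at 30.5 and 100.5. In the STZ pair the 4 lists of entry, folding, degradation and coats had lower medians, of 0.82, 0.85, 0.97 and 0.62, and that of sugar transfer was 0.80.

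Granule contents had the highest median of all lists with at least 5 members. Of 20 granins, prohormone convertases and related genes, all were members at 5 FPKM or more in both libraries, 18 were at least 2-fold higher and 0 lower (median 1.74). The list summed to 3821 and 14391 FPKM. Nucb2, the precursor of nesfatin, stood at 49.98 and 241 FPKM and Resp18, an endocrine granule protein, at 204 and 811. The list's 2 genes under 2-fold were Cpd, a carboxypeptidase of the Golgi, at 18.5 and 27.0 FPKM, and Cacna2d1, a calcium channel subunit, at 6.37 and 8.90. In the STZ pair 17 of the 20 were higher and the median was 1.60. The proton pump that acidifies granules and lysosomes was apart from its cargo: of 17 members of the V-ATPase list 2 were higher and 0 lower (median 0.44), below the share of all members. Its catalytic subunit gene Atp6v1a stood at 107 and 68.2 FPKM.

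Machinery shared by beta cells and neurons was also higher in the library labelled Glut2L. Of 24 members of the exocytosis list, 16 were at least 2-fold higher and 0 lower (median 1.29), 21 of them at 5 FPKM or more in both libraries, and the list summed to 351 and 1030 FPKM. Syp, which encodes the vesicle protein synaptophysin (chromosome X, 7638471 to 7653256), stood at 30.4 and 206 FPKM, with intervals of 6.31 to 54.5 and 48.9 to 363. Rph3al, a Rab3 and Rab27 partner, stood at 11.8 and 51.0 FPKM and the synaptotagmin Syt13 at 28.2 and 110.0. The core fusion protein gene Vamp2 was nearer, at 21.2 and 33.7 FPKM, and the scaffold gene Erc1 stood at 15.7 and 11.7.

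Ion channel genes followed, with 16 of 25 members higher and 0 lower (median 1.23), although 13 of these 25 were below 5 FPKM in 1 library. Kcnk16, a background potassium channel of islets, stood at 2.93 and 16.05 FPKM, and Atp2a3, a calcium pump of the reticulum, at 21.01 and 84.6. Genes of neuronal cytoskeleton and adhesion were mixed: 10 of 25 members were higher and 2 lower (median 0.78). Stmn4, a stathmin of neurons, was listed at 0 in both libraries labelled Glut2H and stood at 8.67 (control) and 6.37 (STZ) in those labelled Glut2L. The adhesion gene Cadm1 stood the other way, at 13.5 and 2.22 FPKM. Dpysl3, a guidance gene, did too in the control pair, at 13.5 and 4.21, but stood at 3.25 and 11.03 FPKM in the STZ pair.

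Receptor genes split. Of 25 members of the G protein-coupled receptor list 13 were higher and 8 lower (median 1.05), and the lower members lay far from the rest. Ffar1, the receptor of long-chain fatty acids on beta cells, stood at 4.42 and 43.8 FPKM, and Gipr, the receptor of the incretin GIP, at 1.13 and 6.80. The lowest were Rgs1, a regulator of such receptors in leukocytes, at 303 and 8.78 FPKM, the complement receptor gene C3ar1 at 18.4 and 0.520 and S1pr1, a receptor of endothelium and lymphocytes, at 16.6 and 0.567. Serotonin synthesis stood on the high side, with 7 of 10 members higher and 0 lower (median 1.62). Tph2, the neuronal form of tryptophan hydroxylase, stood at 0.808 and 23.2 FPKM, and at 0.233 and 9.99 after STZ. Its intervals in the control pair, 0 to 2.17 and 0.887 to 65.6, overlapped. Ddc, the enzyme of the next step, stood at 28.2 and 116 FPKM and Maob, which degrades monoamines, at 14.7 and 68.8, whereas its paralog Maoa stood at 6.52 and 5.05.

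**Figure D2:**
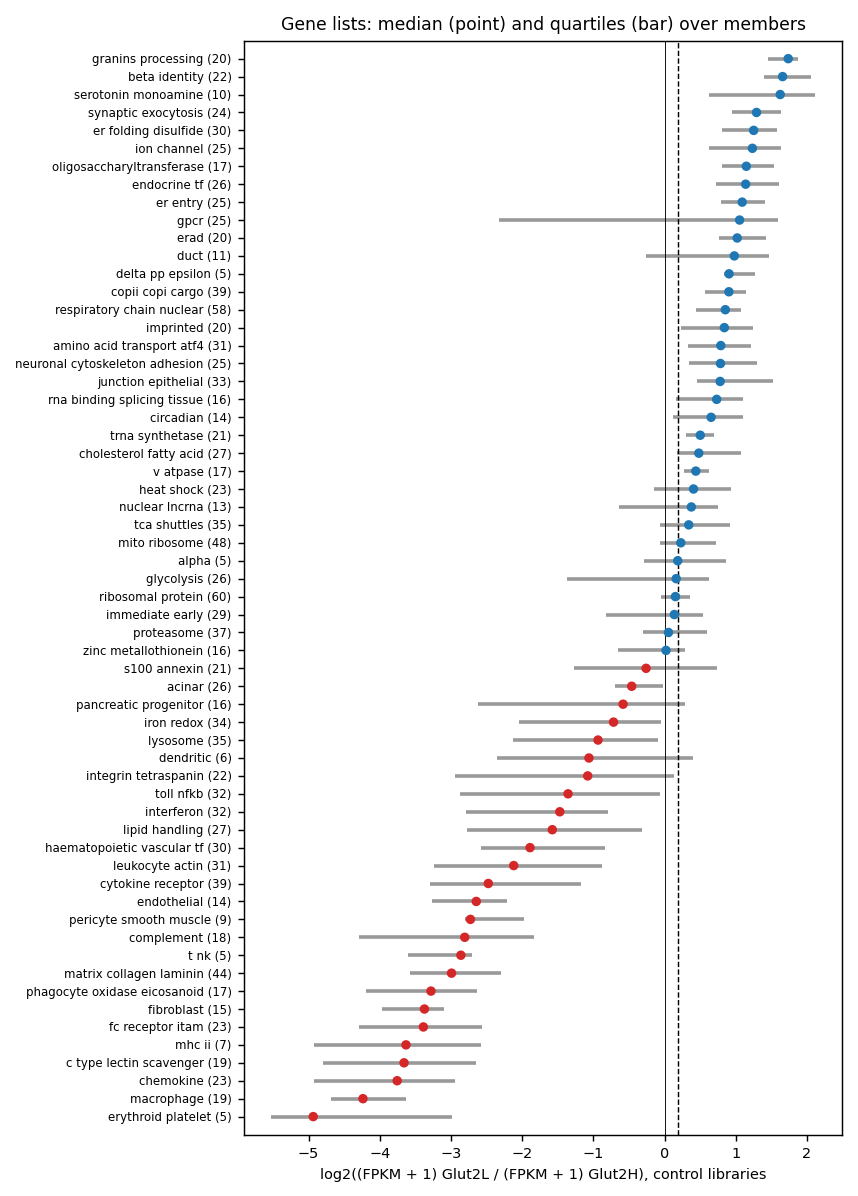
Points are the median and bars the quartiles of log2((FPKM + 1)) differences, Glut2L minus Glut2H, over the members of each list with at least 5 members (number in brackets). The dashed line is the median of all members, 0.19. Granule processing lies highest at 1.74, and macrophage markers, at -4.24, lie above the erythroid and platelet list alone.

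Transcription factor genes of endocrine cells were mostly higher in the library labelled Glut2L, 14 of 26 members against 1 lower (median 1.14). Vdr, the vitamin D receptor, stood at 11.1 and 68.4 FPKM, and 15.8 and 37.2 in the STZ pair. Mlxipl, the carbohydrate response factor ChREBP, stood at 3.60 and 18.1 in the control pair and the other way, at 12.5 and 8.88, in the STZ pair. The factor that stood lower was Sox4, of developing endocrine cells, at 9.80 and 2.47 FPKM. Factors of blood and vessel lineages were mostly lower: 19 of 30 members, against 1 higher (median -1.89). Spi1, the myeloid factor PU.1, stood at 83.2 and 4.44 FPKM and Irf5, an interferon regulatory factor of macrophages, at 90.2 and 1.64. Cebpd was the exception, at 28.9 and 136 FPKM, and stood the same way after STZ, at 25.4 and 81.4. Its 136 FPKM lay above its own deposited interval of 27.1 to 123, which overlapped that of the other control library, 5.22 to 35.4. Of these 30 factors, 12 were at 5 FPKM or more in both libraries, where 2 were lower and 1 higher.

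Epithelial genes stood with the endocrine ones. Among 33 members of the junction list 15 were higher and 2 lower (median 0.78). Cldn7, a claudin of tight junctions, stood at 32.5 and 143 FPKM, and Spint2, an inhibitor of membrane proteases, at 27.5 and 128. The lower ones were Cdh5, the cadherin of endothelium, at 24.0 and 0.814 FPKM, and Cldn2, at 7.46 and listed at 0. Esrp1, a splicing regulator of epithelia, stood at 9.86 and 44.2 FPKM, and Celf2, a splicing regulator of blood and brain, at 9.73 and 4.06. In the tissue splicing list as a whole 5 of 16 members were higher and 1 lower (median 0.73), where 18.4% and 16.4% of all members were.

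Nuclear genes of the respiratory chain were mostly on the higher side, while other mitochondrial lists lay closer to all members. Of 58 respiratory chain genes, all members, 19 were at least 2-fold higher and 0 lower (median 0.85), and the list summed to 4932 and 8726 FPKM. Cox6a2, the muscle form of a cytochrome oxidase subunit, stood at 29.3 and 144 FPKM and Ndufv1, a catalytic subunit of complex I, at 19.6 and 76.4. Its partner subunit Ndufv2 stood at 33.4 and 26.3 and Ndufa10 at 26.1 and 17.6. Both differences were under 2-fold, so subunits of complex I were not all higher. In the STZ pair 7 were higher and 2 lower, and the median was 0.37. Mitochondrial ribosomal protein genes had 6 of 48 members higher and 2 lower (median 0.23, against 0.19 over all members). Genes of the citric acid cycle and its shuttles had 8 of 35 members higher and 1 lower (median 0.34). The pyruvate dehydrogenase kinases, which switch off entry into the cycle, were split: Pdk1 stood at 1.04 and 10.2 FPKM, Pdk4 at 1.34 and 8.37, and Pdk3 at 7.86 and 3.24. Pdk1 stood at 12.4 and 9.12 in the STZ pair.

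Amino acid and sterol genes gave a mixed picture. Of 31 members of the amino acid transport and ATF4 target list 12 were higher and 3 lower (median 0.79). Serine synthesis was on the high side, with Phgdh, its first enzyme, at 17.5 and 51.8 FPKM and Psph, its last, at 15.9 and 47.5. Ddit3, the stress factor CHOP, stood at 85.0 and 345 FPKM. Members of the same list stood the other way: the cystine transporter Slc7a11 at 26.5 and 6.76 FPKM, the stress gene Nupr1 at 196 and 74.2 and the glutamine transporter Slc1a5 at 31.9 and 15.3. In the STZ pair these 3 had log2 values of -2.03, -1.60 and -0.998. Of 27 sterol and fatty acid synthesis members 9 were higher and 0 lower (median 0.48). Pmvk, phosphomevalonate kinase, stood at 10.2 and 62.0 FPKM and Sc4mol, an oxidase of sterol synthesis, at 17.0 and 82.6, while fatty acid enzymes of the list such as Acsl3, at 7.87 and 4.71, were not among the 9.

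Receptors and effectors of phagocytes stood the other way. Of 33 genes for Fc receptors and signalling through immunoreceptor tyrosine motifs, 23 were members and all 23 were lower by 2-fold or more in the library labelled Glut2L (median -3.39), while 3 of them were at 5 FPKM or more in both libraries. The whole list summed to 1519.97 and 241 FPKM. Tyrobp, the adaptor DAP12 (chromosome 7, 30413760 to 30417585), stood at 339.9 and 7.64 FPKM, and 365 and 9.35 after STZ. Fcer1g, the common gamma chain, stood at 119 and 3.70 FPKM, and the inhibitory receptor gene Fcgr2b at 31.8 and 0.157. The smallest difference was that of Ptpn6, the phosphatase SHP-1, at 476 and 180.2 FPKM, which stood at 58.6 and 46.9 in the STZ pair.

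Class II antigen presentation, which shows captured peptides to T cells, had 7 of 7 members lower (median -3.63). At 5 FPKM or more in both libraries were 4 of the 7. H2-Aa, the alpha chain, stood at 301 and 10.8 FPKM, and Ctss, the protease that frees the class II groove, at 387 and 9.76. Lectins and scavenger receptors had 17 of 19 members lower and 0 higher (median -3.66). Only 6 of the 19 were at 5 FPKM or more in both libraries, with 4 lower. Clec7a, the beta-glucan receptor dectin-1, stood at 108 and 0.504 FPKM, Msr1, scavenger receptor A, at 71.4 and 0.792, and Cd36, which takes up fatty acids and oxidised lipid, at 130.2 and 2.33. The list's 2 members under 2-fold were Scarb1, the HDL receptor, at 9.82 and 9.003 FPKM, and Clec12a at 11.1 and 6.21. Summed levels of the lectin list were 1706 and 117 FPKM, and of the class II list 1181 and 39.4.

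Secreted signals were lower too. Among 23 chemokine members 21 were lower and 1 higher (median -3.76). Only 3 of the 23 were at 5 FPKM or more in both libraries, and all 3 were lower. Ccl3 and Pf4 stood at 72.4 and 49.7 FPKM in the library labelled Glut2H and were listed at 0 in the one labelled Glut2L, and Ccl9 stood at 89.4 and 0.525. Ccr7, a homing receptor of dendritic cells and lymphocytes, stood at 4.62 and 11.1 FPKM in the control pair and 3.65 and 2.54 in the STZ pair. Of 39 cytokine and receptor members 31 were lower and 1 higher (median -2.48). At 5 FPKM or more in both libraries were 14 of the 39, with 8 lower and 1 higher. Il1rn, the natural antagonist of the interleukin-1 receptor, stood at 392 and 5.62 FPKM, Il6 at 97.9 and 2.59 and Igf1, a growth factor, at 57.6 and 0.294. The receptor itself stood the other way: Il1r1 was at 27.6 and 58.5 FPKM, and at 25.9 and 55.8 in the STZ pair. The deposited intervals of Il1r1 in the control pair, 10.6 to 44.6 and 20.7 to 96.4, overlapped. The interleukin-1 genes Il1a, at 13.8 and 0.154 FPKM, and Il1b, at 14.2 and 1.10, stood lower, as the antagonist did. The antagonist and both ligands therefore differed in direction from Il1r1 in both pairs.

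Complement and oxidative killing gave similar counts. Of 18 complement members 14 were lower and 1 higher (median -2.81). At 5 FPKM or more in both libraries were 5 of the 18, with 3 lower and 0 higher. C1qc, a chain of the starter complex, stood at 115 and 1.42 FPKM and C3, the central component, at 136 and 5.16, whereas Clu, a fluid-phase inhibitor that many epithelia make, stood at 186 and 223. Of 17 members of the phagocyte oxidase and eicosanoid list 15 were lower and 1 higher (median -3.28). Only 2 of the 17 were at 5 FPKM or more in both libraries, with 0 lower and 1 higher. Cybb, the catalytic subunit of the oxidase, stood at 40.5 and 0.348 FPKM. The one higher was Hpgds, a prostaglandin D synthase, at 11.7 and 33.4 FPKM, which stood at 54.0 and 32.7 in the STZ pair. Toll-like receptor and NF-kB genes had 20 of 32 members lower and 0 higher (median -1.36). At 5 FPKM or more in both libraries were 16 of the 32, with 6 lower. Tlr7 stood at 28.0 FPKM and was listed at 0, and Cd14 stood at 163 and 9.97, while Tnip1, an inhibitor of NF-kB in many cells, stood at 58.2 and 113 and Ly96, the partner of the endotoxin receptor, at 9.76 and 16.3.

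Housekeeping systems that phagocytes use heavily were split by gene. Among 35 lysosomal members 17 were lower and 3 higher (median -0.94). Ctsc, a leukocyte protease, stood at 65.3 and 1.04 FPKM and Gpnmb, of lipid-laden macrophages, at 74.5 and 1.67. Gaa, the lysosomal glucosidase, stood at 40.0 and 88.2 FPKM, Ctsf, a cathepsin, at 5.46 and 16.1 and Mcoln1, a calcium channel of the organelle, at 15.6 and 33.4. The actin list of leukocytes had 22 of 31 members lower and 1 higher (median -2.12). Its ERM proteins, which tie actin to the membrane, parted: Msn, the leukocyte and endothelial form, stood at 117 and 6.012 FPKM, Ezr, the epithelial form, at 61.3 and 198, and Rdx at 20.1 and 18.3. The STZ pair gave Msn at 102 and 5.24 FPKM and Ezr at 56.5 and 162.

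Lipid and iron handling were lower with them. Of 27 lipid members 16 were lower and 1 higher (median -1.58). Apoe, the lipid carrier that macrophages secrete, stood at 5074 and 147 FPKM, within list sums of 6107 and 522. The liver X receptor gene Nr1h3 stood at 38.7 and 3.08 FPKM, while Hadhb, of mitochondrial fat oxidation, stood at 26.1 and 62.5. Of 34 iron and redox members 14 were lower and 3 higher (median -0.72, which turned positive, to 0.10, when the sums over all rows were set equal). Fth1, the heavy chain of ferritin, stood at 2967 and 353 FPKM, the light chain gene Ftl1 at 2561 and 1466 and the iron exporter of phagosomes, Slc11a1, at 95.3 and 1.86. Sod1, cytosolic superoxide dismutase, stood at 157 and 359 FPKM and Cat, catalase, at 40.4 and 3.64, so antioxidant enzymes differed in direction.

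Matrix genes were lower almost throughout. Of 48 genes for collagens, laminins and matrix remodelling, 44 were members, 41 at least 2-fold lower and 0 higher (median -2.99), with 13 at 5 FPKM or more in both libraries, of which 11 were lower. The list summed to 2960.3 and 310 FPKM. Dcn, the proteoglycan decorin (chromosome 10, 97479609 to 97518143), stood at 92.8 and 1.16 FPKM, Col1a1, of fibrillar collagen, at 51.5 and 1.01, and Tnc, tenascin C, at 108 and 3.49. Mmp12, the elastase of macrophages, stood at 269 and 7.04. The 3 under 2-fold were P4ha1, a collagen-modifying enzyme, at 21.5 and 22.9 FPKM, Sparcl1 at 29.8 and 23.5 and Lama5, the laminin chain of epithelial basement membranes, at 5.28 and 3.71. Integrins and tetraspanins were split, with 11 of 22 members lower and 3 higher (median -1.08). At 5 FPKM or more in both libraries were 12 of the 22, with 3 lower and 2 higher. Itgam stood at 48.8 and 1.29 FPKM, and the tetraspanins Cd82 and Tspan7 at 12.6 and 55.0 and at 24.0 and 97.3.

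Immunoglobulin genes, named here after their values were seen, were mostly higher in the control library labelled Glut2H. Of 12 such members 11 were lower by 2-fold or more in the library labelled Glut2L, where 16.4% of all members were. No such member reached 5 FPKM in both control libraries, so the 11 entered through the library labelled Glut2H alone. Igkv14-111 stood the other way, listed at 0 and at 6.51 FPKM. In the library labelled Glut2L 9 were listed at 0, and 10 were listed at 0 in both STZ libraries. Igkc, the kappa constant region, stood at 167 FPKM and was listed at 0 in the other 3 libraries. Ighm, the constant region of IgM, stood at 39.5 and 0.249. Of the B cell marker list 3 of 10 genes in the table were members, with sums of 38.3 and 9.95 FPKM over the list. Hba-a1, an alpha globin, stood at 45.0 FPKM and was likewise listed at 0 in the other 3 libraries. These genes thus set the 2 libraries labelled Glut2H apart from each other as well.

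Some large groups differed little at the deposited scale. Of 60 ribosomal protein genes, all members, 2 were at least 2-fold higher and 0 lower, far below the 34.8% of all members. Their median was 0.15, which turned to -0.04 with the median of members set to 0. Rpl35 stood at 336.2 FPKM in both libraries and Eef1a1, the elongation factor, at 3635 and 3807. Proteasome genes had 2 of 37 higher and 1 lower (median 0.05, which turned to -0.14 with the median of members set to 0). The one lower was Psmb9, the interferon-induced catalytic subunit, at 57.5 and 12.8 FPKM, and Psmd13, of the lid, stood at 46.8 and 184 but at 40.6 and 44.2 in the STZ pair. Ctrc, an acinar chymotrypsin, stood at 278 and 277 FPKM in the control pair and 378 and 28.9 in the STZ pair, where 24 of 25 acinar members were lower against 3 of 26 in the control pair.

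Glycolysis had a median near 0, and its members parted. Of 26 members 3 were higher and 8 lower (median 0.16, which turned to -0.03 with the median of members set to 0). Pfkm, the muscle form of phosphofructokinase, stood at 2.54 and 10.2 FPKM. The hexokinase gene Hk2 stood the other way, at 14.9 and 0.119 FPKM, as did Hk3, a leukocyte form, at 27.0 and 4.30. Among zinc genes, Slc30a8, the transporter that loads zinc into insulin granules, stood at 13.5 and 51.6 FPKM. Slc30a1, which exports zinc from the cell, stood at 9.13 and 1.88. The zinc list had 1 of 16 members higher and 3 lower, where 18.4% and 16.4% of all members were. Its quartiles were -0.65 and 0.29, and the sign of its median, 0.02, turned under 4 settings. Heat shock genes had 6 of 23 members higher and 1 lower (median 0.41), where 18.4% and 16.4% of all members were. Hspa1a, an inducible chaperone, stood at 10.4 and 53.3 FPKM, against Cryab, a small chaperone of muscle and stroma, at 52.1 and 8.11. Hspb1 stood at 9.48 and 51.8 FPKM in the control pair but at 6.82 and 9.21 in the STZ pair.

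The 30 lowest protein-coding members had log2 values of -5.17 to -7.44. Retnla, a secreted protein of alternatively activated macrophages (chromosome 16, 48842551 to 48844461), stood at 173 FPKM and was listed at 0, and in the STZ pair at 465 and 2.59. Cd52, a surface glycoprotein of leukocytes, stood at 505 and 5.11 FPKM. Axl, a receptor by which macrophages bind dying cells, stood at 244 and 5.03 FPKM, and Ms4a4c, a membrane protein of the same family as CD20, at 117 and 1.13. These genes are known from leukocytes. Dcn and Mfap5, of the fibroblast marker list, were also among the 30. Dcn stood at 92.8 and 1.16 FPKM, and Mfap5 stood at 37.6 and was listed at 0. Of the 30, chosen for their large differences, 28 had intervals apart, against 508 of all 9260 members on the lower side. After STZ 29 were lower by 2-fold or more too (background 15.2%) and 0 were higher. The exception was Hba-a1, listed at 0 in both STZ libraries. Others are not known for leukocytes: Arhgap27, a GTPase regulator, stood at 132 and 1.10 FPKM with an interval of 4.69 to 227 in the library labelled Glut2H, and Obfc1, of the telomere-binding CST complex, at 142 and 1.44 with an interval of 1.02 to 579.

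The 30 highest protein-coding members, with log2 values of 3.12 to 5.63, were less alike. Of these, 14 were higher by 2-fold or more after STZ too (background 18.6%) and 3 were lower there. Intervals were apart for 6, against 32 of all 9260 members on the higher side. Prok1, a secreted prokineticin, was listed at 0 in both libraries labelled Glut2H and stood at 11.4 FPKM (control) and 9.14 (STZ) in those labelled Glut2L. Ckmt1, mitochondrial creatine kinase, stood at 1.89 and 30.8 FPKM, and 2.51 and 43.5 after STZ. Wfs1, a calcium-regulating membrane protein of the reticulum that is mutated in Wolfram syndrome, stood at 6.68 and 66.8 FPKM, and 9.61 and 28.4 after STZ. Gmppb, which makes GDP-mannose for glycosylation, stood at 10.1 and 121 FPKM, and 8.86 and 28.4 after STZ. Others did not recur: Tmsb15b2, the highest, stood at 4.103 and 251 FPKM but at 217 and 145 in the STZ pair, and it shares its locus with Tmsb15b1 and Tmsb15l, so its reads cannot be assigned with certainty. Kctd15 stood at 1.01 and 76.6 FPKM with an interval of 0 to 335 in the library labelled Glut2L, against 0.560 and 1.64 after STZ. Prss36 stood at 1.44 and 92.5 FPKM, the latter outside its own interval of 3.42 to 68.8.

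Selenoprotein genes were set apart as a group chosen after their values were seen, because several had some of the highest levels and the largest differences. Of 17 members whose annotation holds a selenocysteine codon, 8 were at least 2-fold higher and 3 lower. Msrb1, a methionine sulfoxide reductase, stood at 1132 and 29498 FPKM and at 1369 and 285 in the STZ pair, and both control values lay outside their intervals, of 107 to 994 and 32.7 to 1018. Gpx3, a secreted glutathione peroxidase, stood at 7335 and 29363 FPKM, with intervals of 594 to 14065 and 2177 to 56124. Gpx4, which protects membrane lipids, stood at 44373 and 17175 FPKM, both far above their intervals of 464 to 4295 and 556 to 5240, which overlap. Without these 17 genes, 1696 members were higher and 1515 lower.

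**Figure D3:**
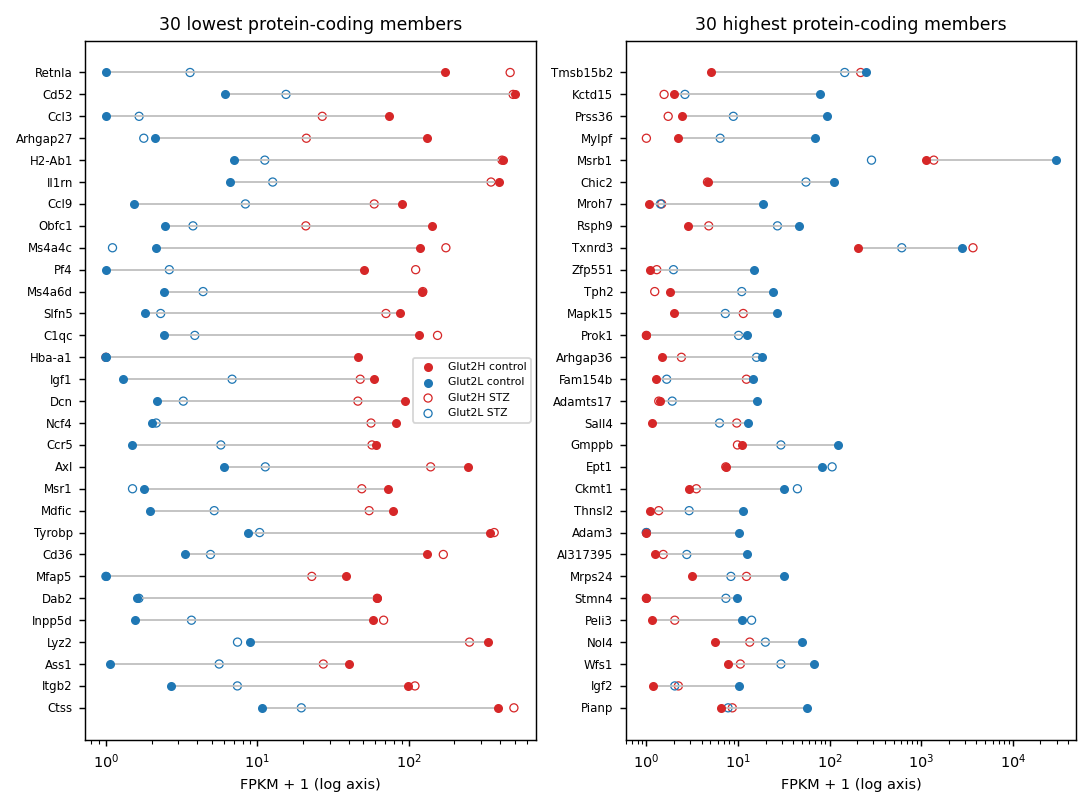
FPKM + 1 (log axis) of the 30 lowest (left) and 30 highest (right) protein-coding members, with control libraries filled, STZ libraries open, Glut2H red and Glut2L blue. On the left the open symbols lie on the same side as the filled ones for 29 of 30 genes; on the right the pairs part at genes such as Tmsb15b2, Msrb1 and Txnrd3.

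Both pairs of libraries measured 8609 of these genes, and the 2 pairs share no library. Of 1547 genes at least 2-fold higher in the control pair, 762 (49.3%) were higher in the STZ pair, where 18.6% of all 8609 were, and 54 were lower. Of 1277 at least 2-fold lower, 918 (71.9%) were lower again, where 15.2% of all were, and 46 were higher. Across these genes, which are not independent and share the libraries' composition, Pearson's correlation of the log2 values was 0.74 and Spearman's 0.63. Without selenoproteins, 35 of 8488 protein-coding genes were at least 4-fold higher in both pairs and 538 at least 4-fold lower.

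Of those 35 the 5 named here were chosen after their values were seen. Chic2, a membrane-associated protein, stood at 3.72 and 112 FPKM in control mice and 3.64 and 54.2 after STZ. Its intervals in control mice, 0.698 to 34.4 and 0.173 to 381, overlapped. Socs3, a feedback inhibitor of cytokine signalling, stood at 47.3 and 208 FPKM, and 8.23 and 100.4 after STZ, although most cytokine receptor genes were lower in the libraries labelled Glut2L. Pdyn, the precursor of dynorphin, an opioid peptide, stood at 1.31 and 12.8 FPKM, and 2.28 and 12.9 after STZ. Ogdhl, a relative of an enzyme of the citric acid cycle, stood at 11.3 and 69.2 FPKM, and 8.63 and 44.9 after STZ. Elf3, an ETS factor of epithelia, stood at 4.08 and 22.1 FPKM, and 0.695 and 10.4 after STZ. In each of these 5 genes both libraries labelled Glut2L stood above both labelled Glut2H, an order that their choice by both pairs largely fixed.

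**Figure D4:**
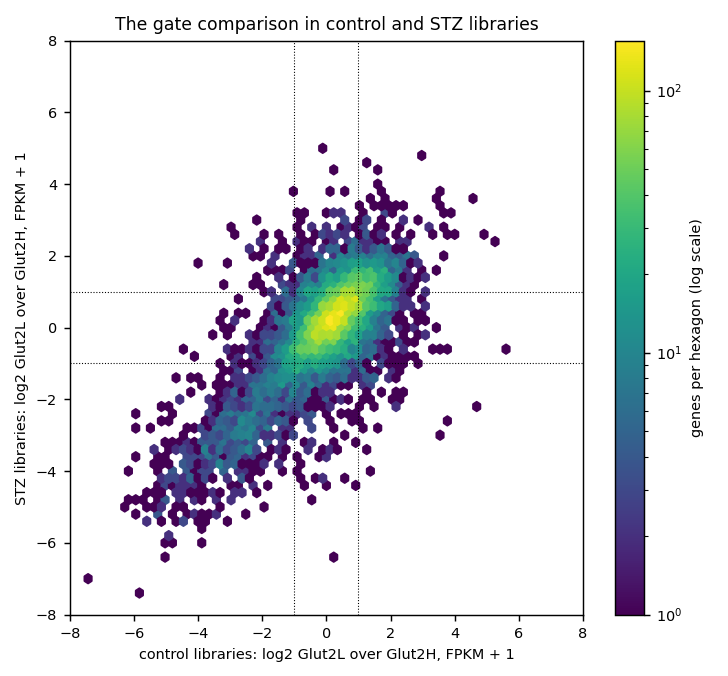
Each hexagon counts genes by their log2 difference, Glut2L minus Glut2H, in the control pair (x axis) and the STZ pair (y axis), over 8609 genes, with dotted lines at 2-fold. Genes lower in both pairs form a long tail at the lower left, and the genes higher in both lie closer to the centre.

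Promoters were examined because the lower members moved together. RefSeq promoters on GRCm38.p6, from 250 bases before to 50 after the start, were held for 7094 members. They were searched on both strands for an ETS-type motif (GAGGAA, letters that the PU.1 protein binds), an AP-1 motif (TGAGTCA), an E box (CAGATG) and a GC box (GGGCGG); the motifs can occur in the same promoter. The ETS-type letters were in 44.5% of the 200 lowest and 28.0% of the 200 highest members, against 26.7% of all members and 28.3% of all 27025 promoters. AP-1 letters were in 9.5% of the 200 lowest and 2% of the 200 highest, against 3.69% of members and 5.17% of promoters. The GC box was in 36.0% of the lowest, 61.0% of the highest and 66.6% of members, and in 35.9% of all promoters. The E box was in 20.5% of the 200 lowest and 14% of the 200 highest, against 11.1% of members and 17.2% of promoters. 

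With members ordered by log2 value and cut into 10 equal groups, the ETS-type share was 36.1% in the lowest group, 31.2% in the next and 22.5% to 26.9% in the other 8. AP-1 letters were in 7.32% of the lowest group and 1.97% to 4.37% of the others. The E box was in 19.2% of the lowest group and 7.89% to 11.4% of the others. The ETS-type letters were therefore not the only ones with their highest share in the lowest group. Of the 30 lowest protein-coding members 19 had a promoter in the table, and 11 of those held the ETS-type letters. The promoters of Retnla (chr16:48842359-48842658, plus strand) and Ccl3 (chr11:83649329-83649628, minus strand) are shown as examples of the lowest members, with these letters in capitals as they read on the gene's strand. Ins1 (chr19:52264047-52264346, plus strand) is shown with its 2 E boxes in capitals and Chga (chr12:102554691-102554990, plus strand) with its 2 GC boxes, as abundant genes of the library labelled Glut2L. A match describes letters and is not a bound site.
Retnla: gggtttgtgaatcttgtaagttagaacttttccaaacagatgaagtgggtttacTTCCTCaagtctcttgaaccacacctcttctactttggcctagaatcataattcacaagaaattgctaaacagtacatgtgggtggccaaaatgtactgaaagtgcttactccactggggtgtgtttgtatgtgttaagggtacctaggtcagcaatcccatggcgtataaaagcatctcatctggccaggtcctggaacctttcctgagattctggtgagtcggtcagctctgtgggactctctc
Ccl3: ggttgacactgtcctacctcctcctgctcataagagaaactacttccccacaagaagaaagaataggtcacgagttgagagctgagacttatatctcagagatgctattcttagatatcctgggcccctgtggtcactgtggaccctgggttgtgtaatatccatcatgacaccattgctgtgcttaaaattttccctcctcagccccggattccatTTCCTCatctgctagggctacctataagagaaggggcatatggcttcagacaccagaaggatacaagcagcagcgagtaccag
Ins1: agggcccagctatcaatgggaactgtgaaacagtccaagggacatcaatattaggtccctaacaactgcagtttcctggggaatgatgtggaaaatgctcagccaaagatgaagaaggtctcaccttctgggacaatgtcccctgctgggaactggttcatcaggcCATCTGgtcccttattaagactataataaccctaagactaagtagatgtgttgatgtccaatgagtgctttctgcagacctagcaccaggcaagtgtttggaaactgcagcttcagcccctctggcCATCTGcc
Chga: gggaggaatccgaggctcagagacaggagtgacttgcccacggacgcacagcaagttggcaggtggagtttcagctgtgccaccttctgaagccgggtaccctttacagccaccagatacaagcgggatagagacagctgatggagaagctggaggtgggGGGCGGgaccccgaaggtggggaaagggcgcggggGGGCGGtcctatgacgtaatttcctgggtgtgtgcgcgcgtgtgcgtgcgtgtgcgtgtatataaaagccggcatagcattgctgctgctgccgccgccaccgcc

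**Figure D5:**
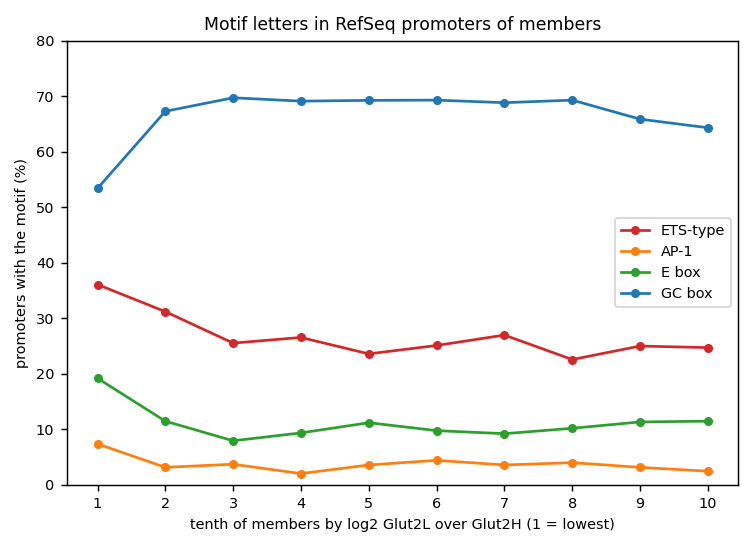
Share of RefSeq promoters with each motif (y axis, percent) in 10 equal groups of 7094 members ordered by log2 Glut2L minus Glut2H (x axis, 1 the lowest). The ETS-type, AP-1 and E box lines are highest in the lowest group, at 36.1%, 7.32% and 19.2%, and the GC box line is lowest there, at 53.4%.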

How the data were processed

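Total RNA of sorted islet cells was sequenced as 4 libraries, 1 per gate and treatment. Per the labels' protocols, Norgen columns gave the RNA, and a stranded TruSeq total RNA kit with Ribo-Zero Gold depletion gave the libraries. TopHat2, SAMtools, Cuffdiff and GRCm38 (mm10) are named in the submitters' processing notes, while the sources used here do not give versions, annotation release or library scaling. Values are FPKM deposited by the authors in a gene table, with a status and 2 interval bounds per gene and library, per the file headers. Those bounds are on the same scale as the FPKM, a coverage-type signal deposited without a stated level. The deposited tables of single samples were used in an alternative.

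No fragment count or depth is given, and none was recovered: among 1242 genes below 0.5 FPKM in both control libraries no bin of 0.05 in log2 ratio held more than 25. Levels were compared as log2 of FPKM plus 1 with Python 3.11.15, pandas 2.3.3 and numpy 2.4.6. This scale understates differences of low genes. Genes were matched by Ensembl ID to GENCODE release M21, which gave positions and biotypes for 37693 of 39170 rows, and 41 members had no match. Symbols held by several rows were left out of the 66 gene lists.

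Members, lists and tests were chosen with earlier results of these data known. Named genes are Slc2a2, Ins1 and Ins2, the 30 highest and 30 lowest protein-coding members, the 15 most abundant members of each library and of those under 0.1 in log2 difference, the 4 highest and 4 lowest of each list described, members that go against their list, and cell type markers. Genes said to be named after their values were seen fall outside this rule. No test was run, since every group is 1 library. Alternatives varied the pseudocount, the level and locus limits, the scaling, the gene class, the table used and the use of the intervals.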

Additional observations from a re-analysis of the deposited data

Results flagged for a closer look

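Among the 30 highest protein-coding members, 3 genes stood higher by 2-fold or more in the control library labelled Glut2L and lower by 2-fold or more in the STZ library with that label. Msrb1 had log2 values of 4.70 (control pair) and -2.26 (STZ pair), from 1132 and 29498 FPKM and from 1369 and 285. Txnrd3, a thioredoxin reductase with selenocysteine, had 3.78 and -2.58, from 201 and 2771 FPKM and from 3669 and 612. Fam154b had 3.52 and -2.89, from 0.257 and 13.4 FPKM and from 11.3 and 0.666. With 1 library per group, the difference between the pairs was not tested.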

How the results depend on the processing

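Main counts were 1704 members higher and 1518 lower in the library labelled Glut2L, 762 higher and 918 lower in both pairs, a median of 0.19, and 11 lists with a median of at least 1 and 23 of at most -1. The median of members turned negative under no setting, but the side with more calls changed. In the control pair the lower side was larger with a pseudocount of 5 (1008 and 1112), the median set to 0 (1251 and 1777), upper quartiles matched (1393 and 1676), equal sums over members without the 20 highest genes (1336 and 1706) and intervals apart. In both pairs the higher side became larger with equal sums over all rows, a limit of 20 FPKM, or 5 FPKM in both libraries. With a pseudocount of 5, 411 were higher in both pairs and 5 lists had a median of at least 1. With a limit of 20 FPKM, 960 were higher and 674 lower, and 443 and 414 in both pairs, and with no limit 7 lists had such a median. With the median set to 0, 458 were higher in both pairs, and 6 lists had such a median, as many as with equal sums over members without the 20 highest genes. Equal sums over all rows gave 4478 higher and 988 lower, a median of 0.96, 3560 and 597 in both pairs and 29 such lists. Intervals apart left 32 higher and 508 lower, and 23 and 436 in both pairs. An alternative added after the data were seen, 5 FPKM in both libraries, gave 1076 and 510, and 477 and 221 in both pairs, with 10 lists at -1 or less. Fewer genes entered under both stricter limits and more with no limit; the cause of the other shifts was not tested. No paired analysis was possible because each group holds 1 library. Depth is unknown, so precision was read from the deposited intervals alone.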
